A study of Homo sapiens with 6 samples.

Results

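The genes described here build the carriers that move proteins between the endoplasmic reticulum (ER) and the Golgi, and they were read in SNU449 cells, an established line of human hepatocellular carcinoma. One group had received a control small interfering RNA (siControl, 3 libraries) and the other an siRNA against the oxytocin receptor gene OXTR (siOXTR, 3 libraries), both for 48 h. The siRNA sequences are not stated in the labels. All libraries came from a single cell line, no sample without transfection was used here, and the labels do not say whether the 3 libraries of a group were separate cultures, so the spread between them may be technical. The 59 members, of 17153 genes in the files, were chosen by name from the coats, GTPases, cargo receptors and tethers of this route, with the difference between siOXTR and siControl in these libraries already known. Their differences between the groups are therefore given as a description, with the error of each, and no test is made of the list as a whole.

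Secretory proteins leave the ER in vesicles coated with COPII. The small GTPase SAR1 starts this coat, SEC23 and SEC24 form its inner layer and bind cargo, and SEC13 with SEC31 forms its outer cage. Escaped ER proteins and cargo receptors return from the Golgi in vesicles coated with COPI, a complex called coatomer that ARF GTPases recruit. Hepatocytes export plasma proteins in bulk along this route, and the unfolded protein response is known to raise many of its genes.

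The values are FPKM, fragment counts scaled to gene length and library size, so levels can be set side by side between genes. OXTR was at 26.5, 26.6 and 24.6 FPKM in siControl libraries 1 to 3 and at 6.03, 6.11 and 6.14 FPKM in siOXTR libraries 1 to 3, lower in every siOXTR library. Summed FPKM ran from 412464 to 415902 in siControl and from 424168 to 429456 in siOXTR, and read depth is unknown. Of 15 hepatocyte markers in the files, 11 averaged below 1 FPKM, ALB and HNF4A among them, and APOB was listed at 0 in every library. The summed level of the 15 was 147.9 to 155.4 FPKM in siControl and 27.6 to 29.1 FPKM in siOXTR, and the part of that difference in the results below was not tested. Nearly all of that sum was the fibrinogen genes FGA, FGB and FGG, with log2 changes of -2.34, -3.25 and -2.27, and the urea cycle gene CPS1 (-1.07). Of 7 markers of epithelium and liver tumour, the keratin genes KRT8 and KRT18 were expressed and higher in siOXTR (log2 changes 0.35 and 0.49). The other 5 averaged below 1 FPKM, namely the epithelial markers KRT19, EPCAM and CDH1 and the liver tumour markers AFP and GPC3. Of 8 markers of immune, endothelial and stromal cells, 5 averaged below 1 FPKM, and the sum of the 8 was 13.9 to 15.2 FPKM in siControl and 15.6 to 18.8 FPKM in siOXTR. Of these, the macrophage marker CD68 was higher (log2 change 0.74) and the fibroblast marker COL1A1 lower (-0.41). In bulk RNA a change in the mix of cells and a change of RNA per cell cannot be told apart.

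Promoter sequence did not enter the choice of the members and is shown first. The motifs, like the members, were chosen with earlier results of these data known, and the shares of promoters below were not tested. An 8-base core of the unfolded protein response element (UPRE), TGACGTGG, is bound by XBP1 and related factors, and it was searched on both strands in the RefSeq promoter table (GRCh38.p14), which runs from 250 bases before to 50 bases after each transcript start. It was present in 9 of the 51 members with an entry (17.6%), namely COPA, COPB1, COPB2, SEC23A, SEC24A, SEC16A, KDELR3, ARF1 and GBF1. The core was in 0.729% of all 35116 promoters, and in 1.16% of the 9546 tested genes with an entry. The windows below show each match with 30 bases in all, read 5′ to 3′ on the strand of the gene, with the core in capitals, which reads CCACGTCA where it lies on the other strand.
COPA, chr1:160343227-160343256, minus strand: gagagggtcgcTGACGTGGaggcgtccgaa
COPB1, chr11:14499841-14499870, minus strand: cccacccccttCCACGTCAgccaaggactc
COPB2, upstream match, chr3:139389825-139389854, minus strand: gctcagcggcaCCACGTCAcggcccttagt
COPB2, downstream match, chr3:139389632-139389661, minus strand: tcccggaagttCCACGTCAgtcagtctgac
SEC23A, chr14:39103221-39103250, minus strand: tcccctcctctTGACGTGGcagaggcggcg
SEC24A, chr5:134648595-134648624, plus strand: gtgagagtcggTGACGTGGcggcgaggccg
SEC16A, chr9:136484707-136484736, minus strand: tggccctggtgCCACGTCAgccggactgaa
KDELR3, chr22:38468039-38468068, plus strand: ggccgccctggCCACGTCAccgcccggcca
ARF1, chr1:228082681-228082710, plus strand: cccggaggcgcTGACGTGGccgccgtcaga
GBF1, chr10:102245526-102245555, plus strand: gaggctagttaCCACGTCAgtgagctgaca

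The core began 48 bases before the start in COPB1, at -48, at -46 in KDELR3, at -16 in ARF1 and at -4 in SEC23A. It began at position 6 of the transcribed part in COPA and GBF1 and at position 16 in SEC16A. SEC24A had it farther upstream, at -179. COPB2 had matches at -163 and 31 in the first of its 2 entries in the table. Their log2 changes, siOXTR against siControl, ran from 0.11 in GBF1 to 1.18 in COPA, and since the members were chosen on this contrast nothing is read from their direction. Among tested genes outside the 59, 102 carried the core, of which 45 were called higher (44.1%) and 41 lower, with a median log2 change of 0.01. Over all 9546 tested genes with an entry, 38.1% were called higher and the median was -0.05. A match of letters describes the window and does not show binding.

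**Figure D1:**
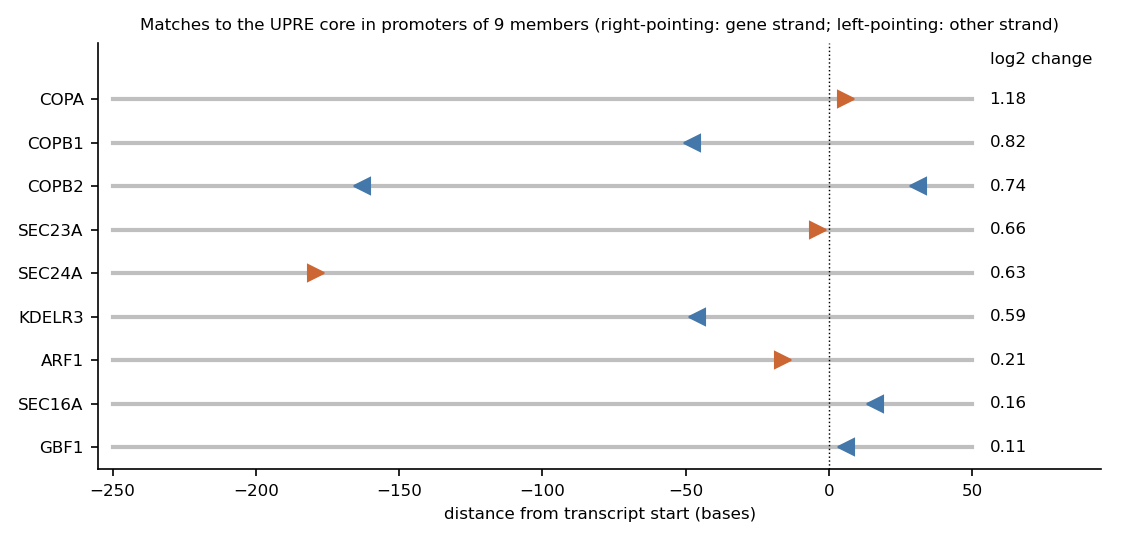
Position of the UPRE core in the promoters of the 9 members that hold it, in bases from the transcript start, with each gene's log2 change at the right (for COPB2, the first entry of the table). Of the 10 matches drawn, most lie within 50 bases of the start, and those of SEC24A and the upstream match of COPB2 lie farther away.

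The other elements searched were in 0 or 1 of the 51 members. The ER stress response element (ERSE), CCAAT and CCACG with 9 bases between, was in none of them and in 0.0769% of all promoters, and ERSE-II, ATTGG and CCACG with 1 base between, in 0 and 0.0541%. The cyclic AMP response element TGACGTCA was in 1 member, TRAPPC1, and in 1.85% of all promoters, and the C/EBP-ATF sequence TTGCATCA in 0 members and 0.866%. Members are counted per gene. Counted that way, the shares of the 9546 tested genes with an entry were, in the same order, 0.168%, 0.136%, 3.95% and 0.723%. Of the genes outside the 59 that carried the C/EBP-ATF sequence, 37 of 69 were called higher (53.6%, median log2 change 0.12), and of those with TGACGTCA 161 of 376 (42.8%, median -0.03). For ERSE it was 8 of 16 and for ERSE-II 5 of 13, counts too small to compare with 38.1%. Shares above 38.1% were thus also seen for the C/EBP-ATF sequence and TGACGTCA, and the differences between elements were not tested. ARF4, ARFGAP1, KDELR2, SEC24D, TMED4, TMED9, TRAPPC8 and TRAPPC9 have no entry in the table. The 100 bases before the start are printed for COPB1 and KDELR3, where the core lies upstream, and for the paralogs COPG1 and COPG2, which moved farthest apart and hold none of the 5 elements.
COPB1, chr11:14499812-14499911, minus strand: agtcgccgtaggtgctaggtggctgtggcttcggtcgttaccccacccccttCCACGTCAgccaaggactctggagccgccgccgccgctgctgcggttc
KDELR3, chr22:38467996-38468095, plus strand: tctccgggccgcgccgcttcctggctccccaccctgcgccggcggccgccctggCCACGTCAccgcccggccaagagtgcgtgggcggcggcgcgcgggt
COPG1, chr3:129249506-129249605, plus strand: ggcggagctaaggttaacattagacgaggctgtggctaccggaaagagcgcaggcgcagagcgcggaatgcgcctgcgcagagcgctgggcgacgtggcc
COPG2, chr7:130668749-130668848, minus strand: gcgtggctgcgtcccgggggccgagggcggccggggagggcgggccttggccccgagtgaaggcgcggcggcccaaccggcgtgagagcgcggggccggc
All 4 stretches are rich in G and C, from 66% in COPG1 and 68% in COPB1 to 82% in KDELR3 and 84% in COPG2.

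All 59 members were in the files. Of these, 58 reached 1 FPKM in at least 3 libraries and were tested with limma on log2(FPKM + 1), where a gene is called at a Benjamini-Hochberg adjusted p under 0.05 over the 11655 genes tested. In that fit 35 members were called higher and 19 lower, beside 37.7% of all genes tested called higher and 44.8% called lower. The groups did not overlap in 55 of the 58, beside 83.0% of all genes. The median log2 change was 0.22 over the members tested and -0.06 over all genes tested. Since the members were chosen with this contrast known, nothing is read from these counts or from those by role below.

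Changes were of moderate size. A log2 change of at least 0.5 in either direction was seen in 23 of the 58 members, beside 4390 of the 11655 genes tested. One of at least 1 was seen in 4 members, all higher: SEC24D, COPA, COPG1 and SEC31A. Of all genes tested, 549 were higher and 797 lower by at least 1, and nothing is read from the member counts. No member was lower by 1 or more, and the lowest value was that of ARF3. The SE of a log2 change was 0.02 to 0.06 for every tested member except COPZ2 (0.11), which had the lowest level of the 58. CREB3L1, which encodes an ER-anchored transcription factor, was at 0.02 FPKM on average in each group and was not tested.

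**Figure D2:**
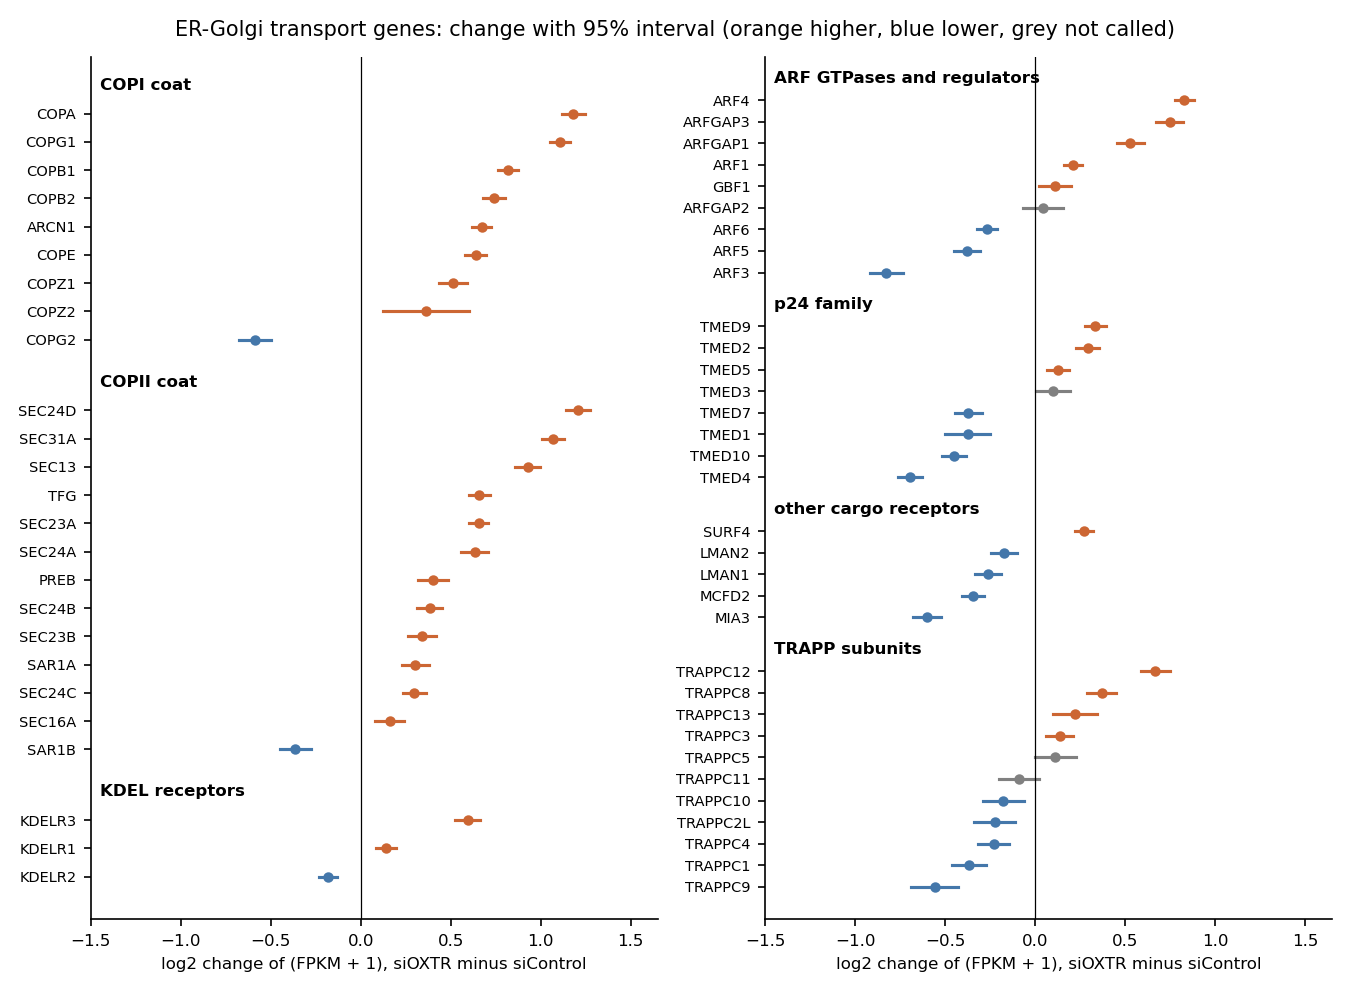
Log2 change of each tested member, siOXTR minus siControl on the log2(FPKM + 1) scale, with its 95% confidence interval from limma (n = 3 libraries per group), by role. All coat genes except COPG2 and SAR1B lie to the right of 0, whereas the p24 family, the other cargo receptors and the TRAPP subunits lie on both sides.

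Coatomer has 7 subunits, and the genes of the major form of each were higher in every siOXTR library than in any siControl library. Of all genes tested, 83% did not overlap between the groups, and nothing is read from that count. COPA, which encodes the alpha subunit that binds retrieval signals on cargo, was at 58.0, 58.6 and 57.6 FPKM in siControl and at 128.7, 136 and 134 FPKM in siOXTR. Its level was 2.29-fold higher (log2 change 1.18, SE 0.03). COPG1, for the main gamma subunit, was at 48.7, 48.0 and 47.5 FPKM in siControl and at 105, 105 and 104 FPKM in siOXTR, 2.18-fold higher (log2 change 1.11, SE 0.02). In both genes the lowest siOXTR library lay far above the highest siControl library. COPB1, for the beta subunit, was at 59.4, 61.7 and 60.1 FPKM and then at 107, 108 and 107 FPKM in siOXTR, 1.78-fold higher (log2 change 0.82, SE 0.03).

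The remaining major subunits had smaller log2 changes. COPB2 (beta-prime) had a log2 change of 0.74, ARCN1 (delta) of 0.67, COPE (epsilon) of 0.64 and COPZ1 (zeta) of 0.51. In siControl the 7 genes stood close together, the highest being 1.46 to 1.53 times the lowest in a library. In siOXTR that ratio was 1.93 to 2.01, with COPA the highest and COPZ1 the lowest of the 7 in each siOXTR library. The subunit genes thus kept less even levels in siOXTR, although the protein complex holds them in fixed proportion.

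Coatomer also has minor gamma and zeta forms. COPG2, the second gamma gene, went the other way from COPG1, at 18.6, 19.2 and 18.9 FPKM in siControl and 12.7, 11.7 and 12.4 FPKM in siOXTR. It was 1.54-fold lower (log2 change -0.59, SE 0.04), and the groups did not overlap. COPG1 made up 71.8% ± 0.503 of the summed FPKM of the gamma genes in siControl and 89.5% ± 0.405 in siOXTR (SD, n = 3). The minor zeta gene COPZ2 was at 2.21 ± 0.377 FPKM in siControl and 3.13 ± 0.501 FPKM in siOXTR (SD, n = 3; log2 change 0.36), and its share of the zeta genes was 3.72% to 4.95% in siControl and 3.73% to 5.30% in siOXTR.

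Of 13 COPII genes, 12 were called higher and 1, SAR1B, lower, beside 37.7% and 44.8% of all genes tested. SEC24D, for a cargo-binding subunit of the inner coat, was at 16.9, 16.3 and 16.3 FPKM in siControl and 39.5, 39.0 and 39.8 FPKM in siOXTR. Its 2.39-fold higher level was the largest change of any member (log2 change 1.21, SE 0.03). SEC31A, for the outer cage, was at 42.5, 42.8 and 42.7 FPKM in siControl and 87.9, 92.1 and 92.0 FPKM in siOXTR (log2 change 1.07, SE 0.03). Its cage partner SEC13, which also serves in the nuclear pore, was at 66.0, 66.4 and 62.0 FPKM in siControl and 123, 123 and 126 FPKM in siOXTR (log2 change 0.93, SE 0.03). In both cage genes the groups lay well apart.

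Among the inner coat genes the paralogs shifted by unequal amounts. SEC24C, the closest paralog of SEC24D, was at 36.3, 35.3 and 34.6 FPKM in siControl and 43.9, 43.3 and 43.9 FPKM in siOXTR, a log2 change of 0.30 (SE 0.03). SEC24D was 31.8% ± 0.187 of the sum of these 2 genes in siControl and 47.4% ± 0.109 in siOXTR (SD, n = 3), so that they came close to equal levels. SEC24A had a log2 change of 0.63 and SEC24B of 0.38, and the share of SEC24A in that pair was 41.4% and 46.0%. SEC23A, which activates the GTPase of SAR1, had a log2 change of 0.66 and SEC23B of 0.34. Both SEC23 genes and all 4 SEC24 genes were called higher, beside 37.7% of all genes tested, and nothing is read from that count.

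The GTPase that starts the coat was divided between its genes. SAR1A was at 26.3, 26.5 and 25.6 FPKM in siControl and 33.7, 32.3 and 31.6 FPKM in siOXTR (log2 change 0.30, SE 0.03). SAR1B, which in people is needed to export chylomicrons, was at 18.7, 18.1 and 18.8 FPKM in siControl and 14.4, 13.6 and 14.5 FPKM in siOXTR (log2 change -0.36, SE 0.04). Neither gene overlapped between the groups, as in 83% of all genes tested. The share of SAR1A was 58.6% ± 0.907 in siControl and 69.7% ± 0.968 in siOXTR (SD, n = 3). PREB, the exchange factor of SAR1 at the ER, had a log2 change of 0.40. TFG, which organises exit sites, had a log2 change of 0.66 and the exit-site scaffold gene SEC16A of 0.16.

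**Figure D3:**
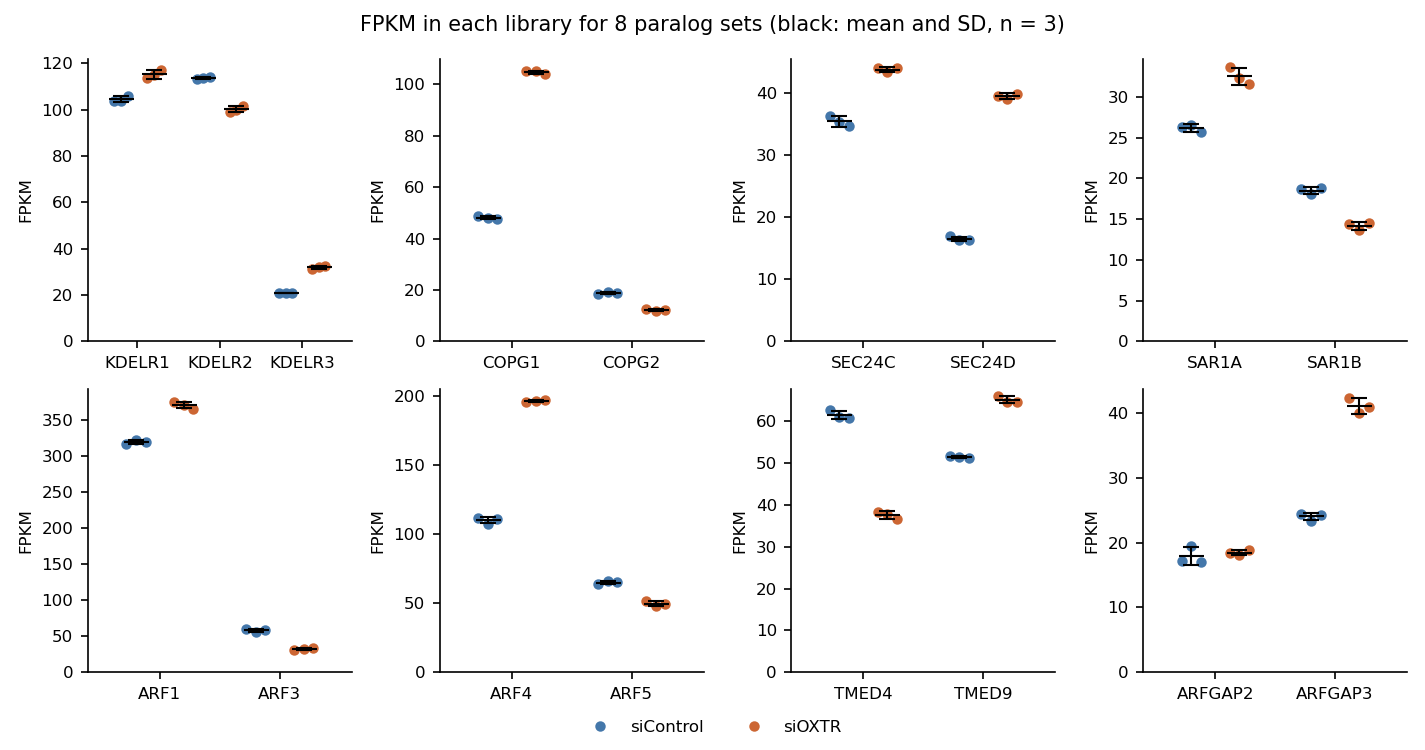
FPKM in each library for the 8 paralog sets whose log2 changes lay at least 0.5 apart, with siControl in blue, siOXTR in orange, and the mean and SD of 3 libraries in black. COPG1, ARF4 and SEC24D are higher in siOXTR, COPG2, ARF3, ARF5, SAR1B and TMED4 are lower, and the groups overlap in ARFGAP2 alone.

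ARF GTPases moved in opposite directions within both pairs of close paralogs. ARF1, the main GTPase for coatomer recruitment, had the highest level of all members, at 317, 322 and 320 FPKM in siControl and 375, 371 and 366 FPKM in siOXTR (log2 change 0.21, SE 0.02). ARF3, its closest paralog, was at 59.9, 56.3 and 59.1 FPKM in siControl and 30.5, 33.1 and 33.8 FPKM in siOXTR. It was 1.80-fold lower (log2 change -0.83, SE 0.04), the largest decrease of any member. The share of ARF3 in the pair was 15.4% ± 0.516 in siControl and 8.06% ± 0.477 in siOXTR (SD, n = 3).

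ARF4, which acts with ARF1 in retrograde transport, was at 111, 108 and 111 FPKM in siControl and 195, 196 and 197 FPKM in siOXTR. It was 1.78-fold higher (log2 change 0.83, SE 0.02), with the siOXTR libraries nearly equal. ARF5 was at 63.7, 65.8 and 65.2 FPKM in siControl and 51.9, 48.0 and 49.4 FPKM in siOXTR (log2 change -0.38, SE 0.03). ARF4 thus made up 62.9% ± 0.805 of the ARF4 and ARF5 sum in siControl and 79.8% ± 0.685 in siOXTR (SD, n = 3). ARF6, which works at the plasma membrane, had a log2 change of -0.27.

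Of the regulators of ARF, the GTPase-activating protein genes differed among themselves. ARFGAP3 was at 24.4, 23.4 and 24.3 FPKM in siControl and 42.3, 39.9 and 40.9 FPKM in siOXTR (log2 change 0.75, SE 0.03). ARFGAP2 was at 17.1, 19.5 and 17.1 FPKM in siControl and 18.3, 18.2 and 18.9 FPKM in siOXTR, where the groups overlapped and the gene was not called (log2 change 0.04, 95% interval -0.07 to 0.16). Without siControl library 2, the highest of that group, ARFGAP2 was called higher (log2 change 0.10). ARFGAP1 had a log2 change of 0.53. GBF1, the exchange factor that activates ARFs at the early Golgi, had a log2 change of 0.11. Its call was lost without siControl library 1 (log2 change 0.07), siOXTR library 2 (0.11) or siOXTR library 3 (0.09), and with no filter on low values.

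KDEL receptors bind ER chaperones that have reached the Golgi and return them in COPI vesicles. KDELR3, the least abundant of the 3 genes, was at 20.8, 20.8 and 21.0 FPKM in siControl and 31.2, 32.1 and 32.7 FPKM in siOXTR, 1.53-fold higher (log2 change 0.59, SE 0.03). KDELR1 was at 104, 104 and 106 FPKM in siControl and 114, 115 and 117 FPKM in siOXTR (log2 change 0.14, SE 0.02). KDELR2 was at 113, 114 and 114 FPKM in siControl and 99.11, 100.01 and 101.47 FPKM in siOXTR (log2 change -0.18, SE 0.02). KDELR2 was thus the most abundant of the 3 in each siControl library and KDELR1 in each siOXTR library, while KDELR3 went from 8.73% ± 0.0220 to 12.9% ± 0.122 of the sum (SD, n = 3).

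The p24 family, named TMED, cycles between the ER and Golgi and helps to load cargo such as GPI-anchored proteins. Of 8 members, 3 were called higher and 4 lower, close to the 37.7% and 44.8% of all genes tested. TMED9 was at 51.6, 51.4 and 51.1 FPKM in siControl and 66.0, 64.6 and 64.5 FPKM in siOXTR (log2 change 0.34, SE 0.03). TMED4, its closest paralog, was at 62.6, 60.8 and 60.7 FPKM in siControl and 38.4, 37.7 and 36.6 FPKM in siOXTR, 1.63-fold lower (log2 change -0.69, SE 0.03). TMED4 had the higher level of the pair in each siControl library and TMED9 in each siOXTR library, with TMED9 at 45.5% ± 0.325 and 63.4% ± 0.367 of the sum (SD, n = 3).

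The other p24 genes lay on both sides of 0. TMED2 and TMED10, whose products pair with each other in p24 complexes, had log2 changes of 0.29 and -0.45. TMED5 had a log2 change of 0.13 and its paralog TMED7 of -0.37, and TMED1 one of -0.38. TMED3 was at 16.6 ± 0.830 FPKM in siControl and 17.8 ± 0.440 FPKM in siOXTR (SD, n = 3) and was not called (log2 change 0.10). It was called higher under quantile scaling (log2 change 0.14), median-ratio scaling (0.18), a filter at 5 FPKM (0.10) and without siControl library 1 (0.13).

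Of the 5 cargo receptor genes outside that family, 4 were called lower, beside 44.8% of all genes tested. MIA3, which encodes TANGO1, the receptor that fits collagen into COPII carriers, was at 29.2, 30.7 and 30.8 FPKM in siControl and 19.8, 19.8 and 19.1 FPKM in siOXTR. It was 1.55-fold lower (log2 change -0.60, SE 0.03), with no overlap. LMAN1 and MCFD2 encode the receptor complex that carries coagulation factors V and VIII, and their log2 changes were -0.26 and -0.34. The lectin gene LMAN2 had a log2 change of -0.17. SURF4, a receptor for soluble cargo, was the exception, at 97.6, 97.8 and 96.0 FPKM in siControl and 116.8, 116.9 and 118 FPKM in siOXTR (log2 change 0.27, SE 0.02).

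TRAPP complexes tether vesicles and activate RAB GTPases. Of 11 subunit genes, 4 were called higher and 5 lower, close to the 37.7% and 44.8% of all genes tested. TRAPPC12 was at 15.8, 14.9 and 15.2 FPKM in siControl and 25.4, 24.6 and 24.6 FPKM in siOXTR, 1.63-fold higher (log2 change 0.67, SE 0.04). TRAPPC9 was at 7.11, 6.83 and 7.63 FPKM in siControl and 4.24, 4.69 and 4.75 FPKM in siOXTR, 1.58-fold lower (log2 change -0.56, SE 0.06). These were the extremes, and neither overlapped between the groups, as in 83% of all genes tested.

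Sorted by complex, a rough order after the values were seen, the subunits particular to TRAPPII were lower and those of TRAPPIII mostly higher. TRAPPII is marked by TRAPPC9 and TRAPPC10, whose log2 change was -0.18. The call of TRAPPC10 was lost under median-ratio scaling (log2 change -0.10). TRAPPIII is marked by TRAPPC8 (0.37), TRAPPC11 (-0.09, not called), TRAPPC12 and TRAPPC13 (0.22). Of the shared core, TRAPPC1 (-0.37), TRAPPC2L (-0.23) and TRAPPC4 (-0.23) were lower, TRAPPC3 (0.14) was higher, and TRAPPC5 (0.11) was not called. Core subunits outside the 59 also went both ways, with TRAPPC6A (0.77) and TRAPPC6B (0.37) higher. TRAPPC2 (-0.40) was lower and TRAPPC2B (0.21) higher, but these are near-identical copies whose values are uncertain. TRAPPC5 was called higher under quantile scaling (log2 change 0.21) and median-ratio scaling (0.18).

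**Figure D4:**
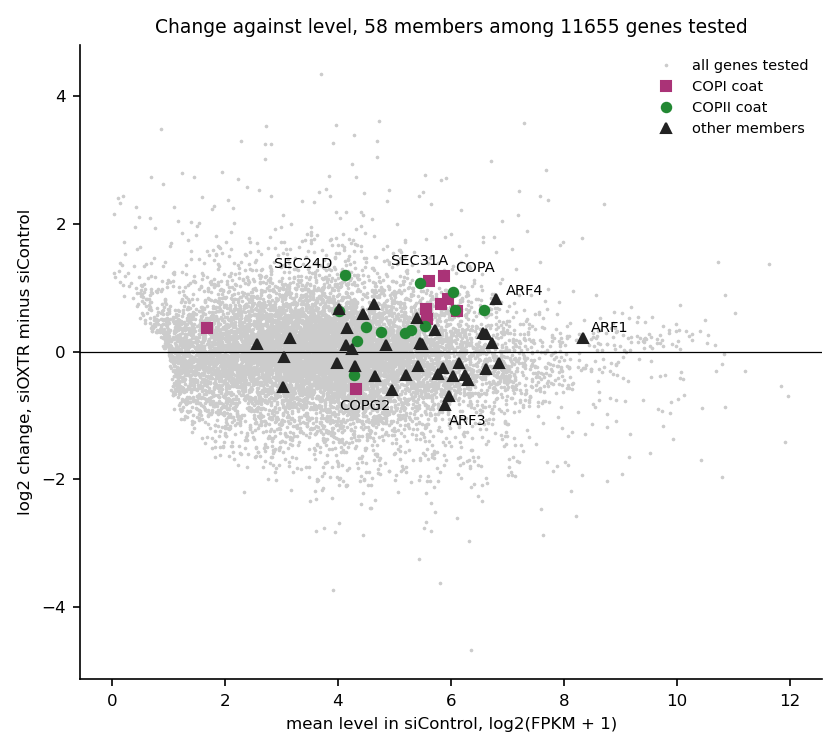
Log2 change of each gene against its mean level in siControl on the log2(FPKM + 1) scale, with all 11655 genes tested in grey and the 58 members tested marked by role. The members spread over most of the range of levels. From ARF3 (-0.83) at the bottom to SEC24D (1.21) at the top, they stay within the range of the grey points, -4.68 to 4.34. Of all genes tested, 549 were higher by a log2 change of at least 1, among them SEC24D, COPA, COPG1 and SEC31A.

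Over the 13 paralog sets compared, 7 held a gene called higher and a gene called lower. Of all genes tested 37.7% were called higher and 44.8% lower, and nothing is read from that count. These were COPG1 and COPG2, SAR1A and SAR1B, ARF1 and ARF3, ARF4 and ARF5, TMED5 and TMED7, TMED9 and TMED4, and the KDEL receptors. The gap between the log2 changes was widest for the gamma coatomer genes (1.69), followed by ARF4 and ARF5 (1.21), ARF1 and ARF3 (1.04) and TMED9 and TMED4 (1.03). The narrowest was that of COPZ1 and COPZ2 (0.15). In 2 sets, the KDEL receptors and the pair of TMED4 and TMED9, the most abundant gene differed between the groups.

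Reads of paralogs could be confused if their sequences were alike. Of the 50-base words in the longest protein-coding transcript of each member in GENCODE release 29, 0% occurred in another gene of its set, so reads of that length would not be shared within a set. Some words did occur in other genes: 49.5% for TRAPPC10, 23.9% for TMED7, which shares them with the read-through gene TMED7-TICAM2, 23.5% for ARF5, 19.8% for COPE, 14.9% for ARF3, 13.8% for TRAPPC5 and 10.4% for COPB1. The labels do not say how the authors assigned such reads or whether they used strand.

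Other genes of the same route were taken from a list of 62, of which 61 were in the files and 58 were tested. There 38 were called higher and 12 lower, beside 37.7% and 44.8% of all genes tested, with a median log2 change of 0.36. The SNAREs, tethers and RABs of the ER-Golgi step were mostly higher: 22 of 27 were called higher and 1, RAB1B, lower. Of the other p24, TRAPP and cargo receptor genes, 9 of 14 were called lower and 4 higher, and 3 of those 4 were the TRAPP genes TRAPPC2B, TRAPPC6A and TRAPPC6B. Other coat and ARF regulators had 8 of 12 called higher and 1 lower, and the CREB3 and ATF6 transcription factors 4 of 5 higher and 1 lower. This list was also chosen with earlier results of these data known, so nothing is read from its counts or from those of its groups.

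GOLGA2, which encodes the golgin GM130 of the cis-Golgi, was at 14.0, 14.4 and 14.8 FPKM in siControl and 41.5, 40.7 and 42.2 FPKM in siOXTR (log2 change 1.46, limma adjusted p = 4.98e-11). SEC22B and BET1, SNAREs of the vesicles from the ER, were 2.49-fold and 2.37-fold higher (limma adjusted p = 7.22e-11 and 4.81e-10). MIA2, whose product partners TANGO1 at exit sites, was 2.06-fold higher (limma adjusted p = 3.11e-09), in contrast to MIA3. ZW10, for a tether of COPI vesicles at the ER, was 2.08-fold higher (limma adjusted p = 2.37e-08). All 5 were higher in each siOXTR library than in any siControl library, as their choice as the largest increases among called genes favours. Their adjusted p-values come from the contrast that picked them. Of all genes tested, 83% did not overlap between the groups.

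ERGIC1, which encodes a membrane protein that cycles through the ER-Golgi intermediate compartment, was at 73.7, 74.7 and 74.6 FPKM in siControl and 28.98, 28.64 and 30.30 FPKM in siOXTR. It was 2.54-fold lower (log2 change -1.31, limma adjusted p = 4.32e-11), a larger decrease than that of any member. RAB1B, a GTPase of the same step, was 1.68-fold lower (limma adjusted p = 6.08e-09), and BCAP29, for an ER export factor of membrane proteins, 1.59-fold lower (limma adjusted p = 3.44e-08). ATF6B, for a stress-cleaved transcription factor, was 1.47-fold lower and TRAPPC14 1.48-fold lower (limma adjusted p = 1.41e-07 and 4.26e-06). None of these 5 overlapped between the groups, beside 83% of all genes tested without overlap. They too were picked by this contrast, as the largest decreases among called genes with a mean of at least 5 FPKM. SEC31B, which lay below that level, was also called lower, 5.85-fold in mean FPKM.

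**Figure D5:**
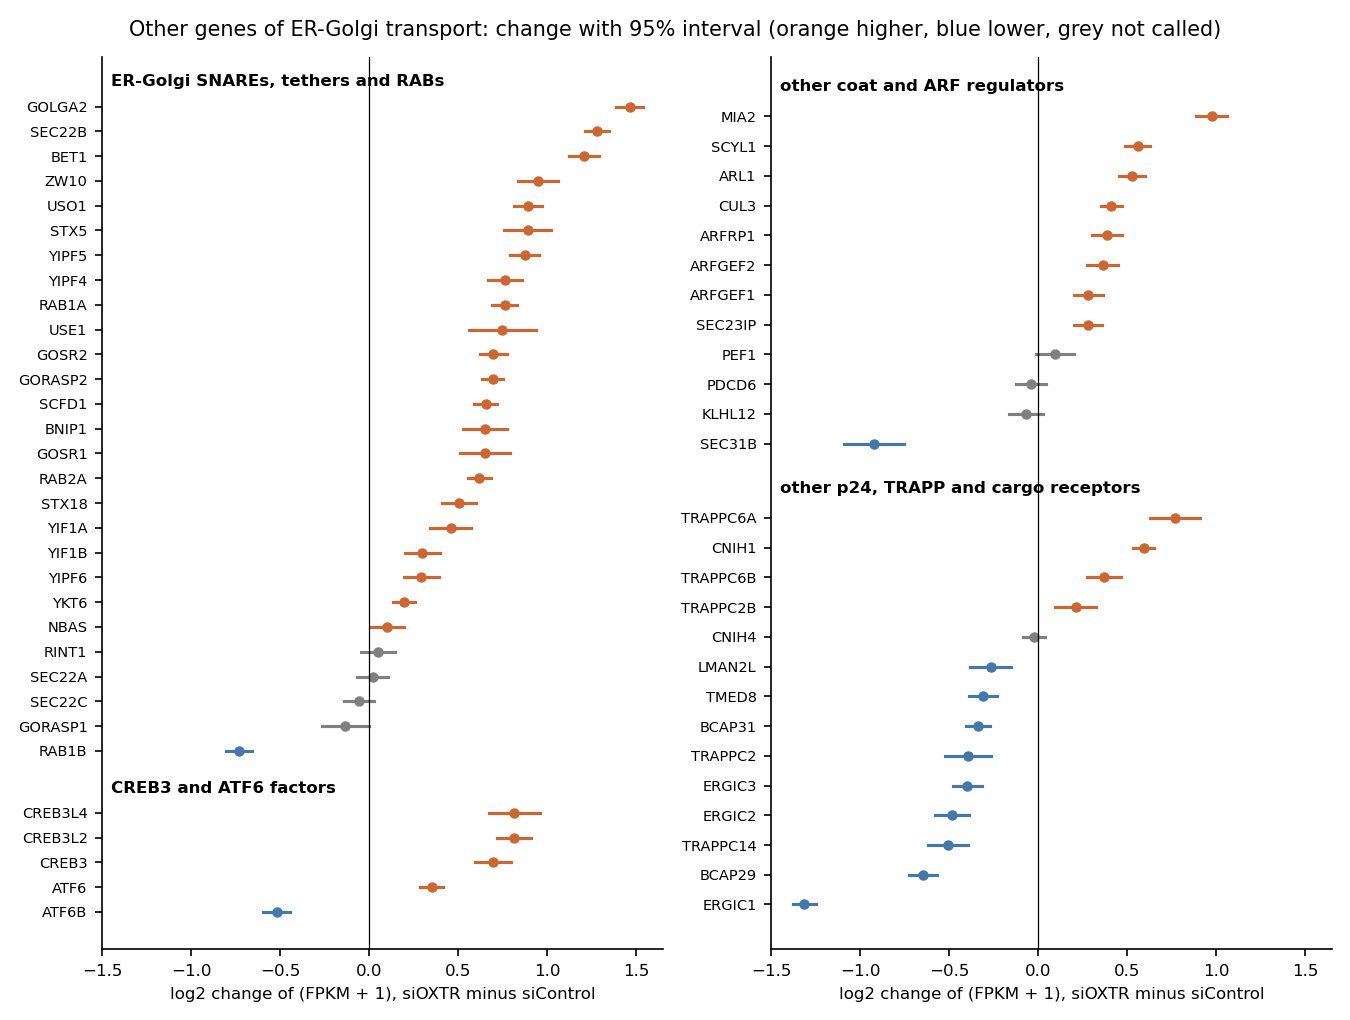
Log2 change of 58 other genes of ER-Golgi transport, siOXTR minus siControl on the log2(FPKM + 1) scale, with 95% confidence intervals from limma (n = 3 libraries per group). The SNAREs, tethers and RABs lie mostly to the right of 0, up to 1.46 in GOLGA2, and the other p24, TRAPP and cargo receptor genes lie on both sides, down to -1.31 in ERGIC1.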

How the data were processed

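RNA of SNU449 cells was sequenced after 48 h of transfection, by the BGISEQ-500 library protocol per the labels. The deposited values are FPKM per gene, per the file headers, scaled by the authors to gene length and library size. The aligner, counter, build and filters were not given in the sources used here. Depth is unknown: of 2297 low values in 785 genes, 21.3% lay within 0.1 of a whole multiple of the gene's lowest value, against 20% for an even spread, so no reads were recovered. The 11655 genes that reached 1 FPKM in 3 or more of 6 libraries entered limma 3.58.1 (R 4.3.3) on log2(FPKM + 1), with a mean-variance trend, two-sided, and Benjamini-Hochberg adjustment. This scale understates changes of low genes. Fold values are ratios of mean FPKM. The fit was tested on simulated data. Groups of 3 cannot reach an exact permutation p below 0.1, so none is given. Paralog shares are percents of summed FPKM in a library.

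Members, lists, paralog sets and motifs were chosen with earlier results of these data known. Values in every library are given for members with a log2 change of at least 0.8 in size, the highest and lowest of each role, and paralog sets at least 0.5 apart. Other genes are named by the 5 largest increases and decreases among called genes with a mean of at least 5 FPKM. Promoters came from RefSeq (GRCh38.p14), matched by symbol and gene ID for 51 of 59 members. Protein sequences were not used here. Alternatives were other pseudocounts, filters and scalings, robust moderation, a replicate block and leaving out each library.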

Additional observations from a re-analysis of the deposited data

How the results depend on the processing

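None of the 58 tested members, nor OXTR or the other 27 genes named with a log2 change, changed direction under the alternatives run. Over 13 alternative settings, the count of members called higher ran from 34 to 37 and of those called lower from 18 to 19, and all counts stayed within 1.5 times the reported ones. Of 1116 log2 changes under alternatives, 1104 kept their direction and side of the threshold, 5 lost the call and 7 gained it, in 5 genes: ARFGAP2, GBF1, TMED3, TRAPPC5 and TRAPPC10. The count of all genes called higher was 4801 under quantile scaling and 4902 under median-ratio scaling, against 4395, and that of all genes called lower was 4714 and 4593, against 5218, so the split of all genes depends on scaling. The median log2 change of all genes was then 0.003 and 0.02, and of the members 0.25 and 0.29. Leaving out 1 library each gave 34 to 36 members called higher and 19 lower. Paralog shares moved by at most 1.43 percentage points. Deviations of same-numbered libraries of the groups correlated at -0.0118, -0.0729 and 0.0388, and those of differently numbered ones at -0.0954 to 0.0996. With 3 libraries per group this cannot settle whether the numbers pair them. The fit with the replicate number as a block called 35 members higher and 19 lower. Without read depth, counting error could not be given for any value.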

Other observations

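A few further pairs of related genes on this route had members on both sides of 0, and they were picked after their values were seen. RAB1A was at 104, 106 and 101 FPKM in siControl and 181, 170 and 179 FPKM in siOXTR (log2 change 0.76), whereas RAB1B was at 65.5, 67.1 and 66.1 FPKM and then 38.1, 41.1 and 39.4 FPKM (log2 change -0.73). The stress-cleaved factor genes ATF6 and ATF6B had log2 changes of 0.35 and -0.52, and the exit-site genes MIA2 and MIA3 of 0.97 and -0.60. The outer cage gene SEC31A was higher, whereas its paralog SEC31B was called lower. SEC31B had a low level, at 1.33 FPKM on average in siControl and 0.227 FPKM in siOXTR. In each of these genes the groups did not overlap, as in 83.0% of all genes tested.

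CREB3L1, the member factor gene, was near the floor, as was its relative CREB3L3, at 0.00667 FPKM on average in each group. CREB3L2 was at 6.57 ± 0.136 FPKM in siControl and 12.3 ± 0.271 FPKM in siOXTR (SD, n = 3). In the same order, CREB3L4 was at 2.39 ± 0.237 and 4.97 ± 0.0896 FPKM, and CREB3 at 15.5 ± 0.465 and 25.8 ± 1.46 FPKM. All 3 were called higher, beside 37.7% of all genes tested. These genes were listed with earlier results of these data known, so nothing is read from that count.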
